A study of Macaca mulatta with 24 samples.

Results

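A set of 10 genes of resident tissue macrophages and of scavenging was followed through the blood of rhesus macaques exposed to 4 Gy of total body irradiation. They are C1QA, C1QB, C1QC, CD5L, LYVE1, CD163, MRC1, MARCO, SIGLEC1 and VSIG4. The members were chosen with earlier results of these arrays known, among them the rise of CD5L at day 3, the rise of LYVE1 at day 7 and the dim signal of several members before irradiation. Every difference from the pre-irradiation arrays is therefore a description of the members and supports nothing. The rule took every probe that the scanner output names for a member, which gave 10 probes of 6 genes, among 14430 genes with a symbol on the array. These 6 genes are C1QC, CD5L, LYVE1, CD163, MRC1 and VSIG4. MARCO and SIGLEC1 were found only through the text description of their probes, with 1 and 2 probes, and VSIG4 has a further probe of this kind. No probe used here is named for C1QA or C1QB, and these genes are not analysed here.

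Whole-blood RNA of male and female macaques was hybridized to 24 one-colour arrays; 7 were pre-irradiation arrays, and 4, 6 and 7 came from days 3, 5 and 7 after exposure. The animals were of Chinese origin and 5 to 10 years old by the methods, and all received 4 Gy, from X-rays by the labels and from a cobalt gamma source by the study's methods. The blood called pre-irradiation here carries day 0 in the labels and was taken 3 days before exposure by the methods. It came from the animals that were later irradiated, and no sham-irradiated array was used here. The replicate number names an animal: numbers 1 to 4 are males and numbers 5 to 7 are females, with 1, 2, 4 and 7 present at day 3 and all but 5 at day 5. Whole blood mixes many cell types, so that fewer cells of a type and less RNA per cell cannot be told apart in any value below.

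The first component of the classical complement pathway recognizes antibody complexes and dying cells through C1q, a molecule built of A, B and C chains, each with a collagen-like stalk and a globular head. Unlike most complement proteins, C1q is made chiefly by macrophages and immature dendritic cells rather than by the liver. CD5L (also called AIM) is a secreted scavenger receptor cysteine-rich protein of tissue macrophages, CD163 is the receptor that clears haemoglobin bound to haptoglobin, and MRC1 (CD206) is the mannose receptor, a C-type lectin. LYVE1 binds hyaluronan on lymphatic endothelium and on a class of resident macrophages, VSIG4 is a complement receptor of liver macrophages, MARCO is a class A scavenger receptor and SIGLEC1 (CD169) is a sialic acid-binding lectin. Resting blood contains few cells of this kind, although circulating monocytes express CD163.

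The probes are 60 bases long, and their positions are those of the scanner output on the rheMac2 assembly, for which no exon or UTR annotation was used here. The probe of C1QC lies on the plus strand at chr1:25237380-25237439. The first CD5L probe lies at chr1:136406221-136406280 on the minus strand, and the second one is spread over 947 bases at chr1:136408726-136409672, so that it crosses a splice junction. The brightest probes of the other genes lie at chr14:61394877-61394936 on the plus strand for LYVE1, chr9:18202707-18202766 on the plus strand for MRC1, chr11:7769296-7769355 on the minus strand for CD163 and chrX:64566767-64566826 on the minus strand for VSIG4. Of the 10 probes, 35% to 60% of the bases were G or C, with C1QC at the top of that range. The sequences of 3 probes are shown so that the measured stretch of these genes can be read, each in a frame without a stop codon. In the C1QC probe, read from its first base, the capitals mark codons that start with GG, which encode glycine; they are codons 3, 6, 9, 12, 15 and 18 of 20, the spacing of a collagen stalk. In the second CD5L probe, read from its first base, the capitals mark the 1 cysteine codon among 20. In the second MRC1 probe, read from its second base, the capitals mark the 2 tryptophan codons (TGG) among 19.
C1QC: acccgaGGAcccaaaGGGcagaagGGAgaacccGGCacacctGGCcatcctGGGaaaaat
CD5L, second probe: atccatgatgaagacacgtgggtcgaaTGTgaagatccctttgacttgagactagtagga
MRC1, second probe: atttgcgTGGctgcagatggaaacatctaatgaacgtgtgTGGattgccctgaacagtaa

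Levels are given as log2 of the background-subtracted signal after each array was shifted to the median array, and a difference of 1 on this scale is a doubling. A probe is well above background on an array when the scanner software marked it so, and it was tested when this held on at least 4 of the 24 arrays. Between 48.3% and 61.1% of the probes met this mark on an array. Precision depends on how many arrays a group has and on the spread between them. Day 7 replicate 2 stood apart with a median signal of 16.7, against 30.9 to 106 on the other arrays. There were 6 slides and 2 scan sessions. All day 3 and day 5 arrays were scanned in session 2, along with both arrays of animal 5, and the other 6 pre-irradiation and 6 day 7 arrays in session 1. Of the 10 probes of the members 8 were tested; the second LYVE1 probe and the third MRC1 probe were too dim. LYVE1 and MRC1 were well above background on no pre-irradiation array. CD5L was so on 3 in its brighter probe and on 1 in its second, fewer than the 4 required. These 3 genes passed the filter only through the irradiated arrays, as did the probes of MARCO and SIGLEC1. The number of members that passed or changed is therefore no evidence about the members.

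Changed probes were those with an adjusted p below 0.005 (limma, Benjamini-Hochberg over all probes tested), and each gene was read in its brightest tested probe. All 3 days were compared with the same 7 pre-irradiation arrays. At day 3, 4 of the 6 member genes were called higher (C1QC, CD5L, LYVE1 and MRC1), where 5.94% of all 10534 genes tested were called higher and 7.59% lower. At day 5, 3 were called higher (C1QC, LYVE1 and MRC1), where 6.25% of all genes rose and 9.09% fell. At day 7, 2 were called higher (LYVE1 and MRC1), where 2.70% of all genes rose and 7.15% fell. No member was called lower on any day. For days 3, 5 and 7 the median difference of the 6 genes was 2.36, 2.14 and 1.6, where the median of all genes was -0.01 each time. These member medians rest in part on pre-irradiation signal not well above background. With another background correction (normexp, described below) the differences of C1QC, CD5L, LYVE1 and MRC1 were smaller on each day. Every array of the day stood above every pre-irradiation array for the same 4 genes at day 3 (9.06% of all genes), for LYVE1 alone at day 5 (4.97%) and for LYVE1 and MRC1 at day 7 (2.08%). The rule used these contrasts, and nothing is read from the counts.

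**Figure D1:**
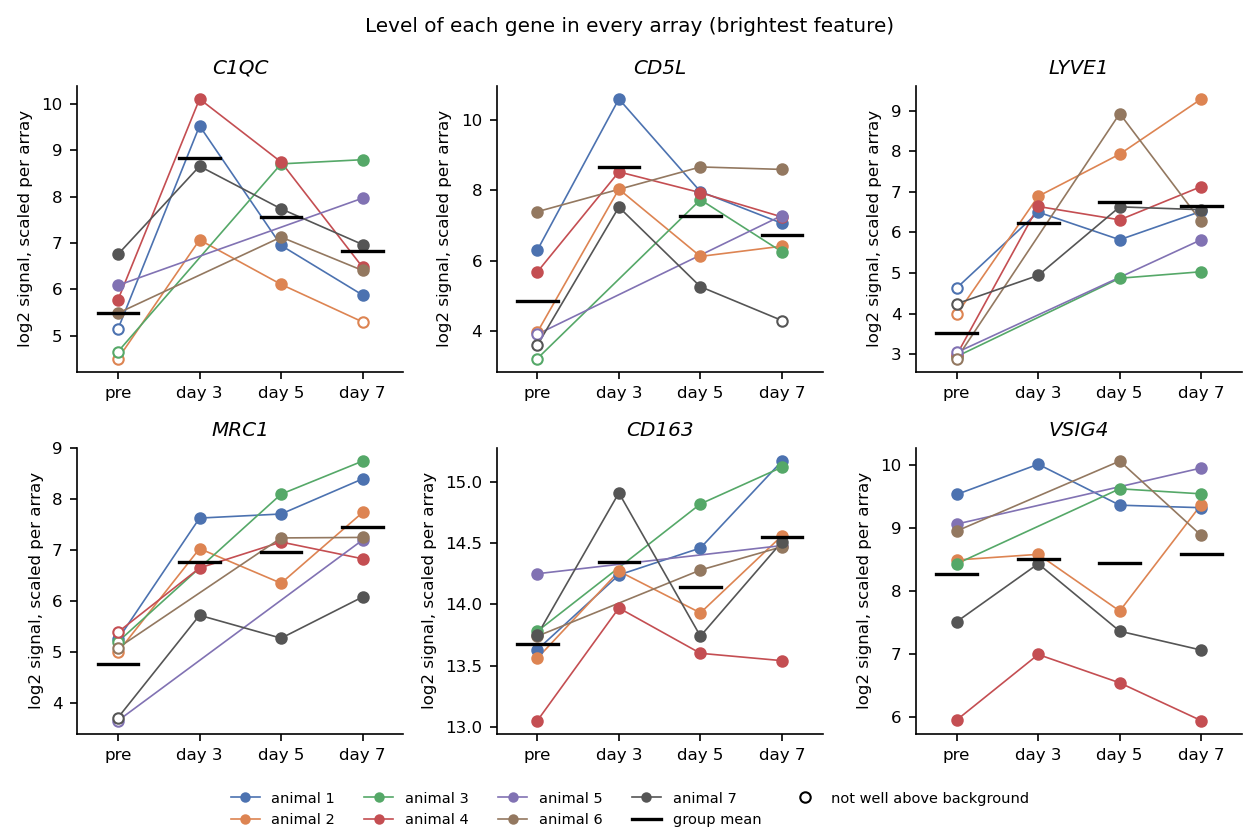
Level of the brightest probe of 6 genes in every array (log2 signal, scaled per array) against the day of the blood sample, with lines joining the arrays of an animal, black bars for group means and open points for arrays not well above background. C1QC and CD5L are highest at day 3, with means of 8.84 and 8.67, LYVE1 and MRC1 stay above every pre-irradiation array at day 7, and CD163 and VSIG4 overlap between all groups.

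C1QC, the C chain of C1q, stood highest at day 3. Its pre-irradiation levels in animals 1 to 7 were 5.15, 4.51, 4.66, 5.78, 6.09, 5.49 and 6.76, with 4 of the 7 arrays well above background. The levels were 9.53, 7.07, 10.11 and 8.66 in animals 1, 2, 4 and 7 at day 3. The day 5 arrays ran from 6.11 to 8.75 around a median of 7.44, and those of day 7 from 5.30 to 8.80 around a median of 6.48. All 4 day 3 arrays, 5 of 6 day 5 arrays and 3 of 7 day 7 arrays stood above the highest pre-irradiation array. Differences from pre-irradiation were 3.35 ± 0.56 (SE), 2.07 ± 0.46 and 1.34 ± 0.50 at days 3, 5 and 7, and those of days 3 and 5 were called. They depend in part on the 3 pre-irradiation arrays not well above background. The measured level was above that of the same animal before irradiation in 4 of 4, 6 of 6 and 7 of 7 animals. Animal 3 held its level between day 5 and day 7 (8.71 and 8.80), while animal 4 went from 8.75 to 6.48.

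In the RefSeq annotation of a later macaque assembly, C1QC lies between C1QB and C1QA. A further 3 probes lie within 20000 bases of the C1QC probe on rheMac2, and the tables used here give none of them a gene symbol; they were looked up after the values of C1QC were known, and no gene is assigned to them. A probe of an unnamed transcript 7707 bases before the C1QC probe (transcript A, chr1:25229673-25229732, plus strand) was well above background on all 24 arrays. Its pre-irradiation levels were 10.90, 10.49, 12.14, 11.90, 12.65, 11.62 and 13.15 in animals 1 to 7, and its day 3 levels were 16.81, 13.81, 17.55 and 16.73 in animals 1, 2, 4 and 7. Its difference from pre-irradiation was 4.39 ± 0.67 at day 3 (20.9-fold, called), 2.48 ± 0.63 at day 5 and 1.42 ± 0.46 at day 7. A second unnamed transcript, 14069 bases after the C1QC probe (transcript B, chr1:25251449-25251508, plus strand), went from 8.84 to 11.33 before irradiation to 14.83, 12.27, 15.35 and 14.56 at day 3. Its differences were 4.12 ± 0.58 at day 3 (17.4-fold, called), 2.77 ± 0.55 at day 5 (called) and 1.65 ± 0.47 at day 7. Over the 24 arrays the level of C1QC correlated with transcript A at r = 0.95 and with transcript B at r = 0.96, and at 0.88 and 0.92 after the group means were subtracted; the arrays share animals, and these values describe them. Animal 2 was lowest and animal 4 highest of the day 3 arrays for all 3 probes. The third neighbour, 14738 bases away, was well above background on no array.

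**Figure D2:**
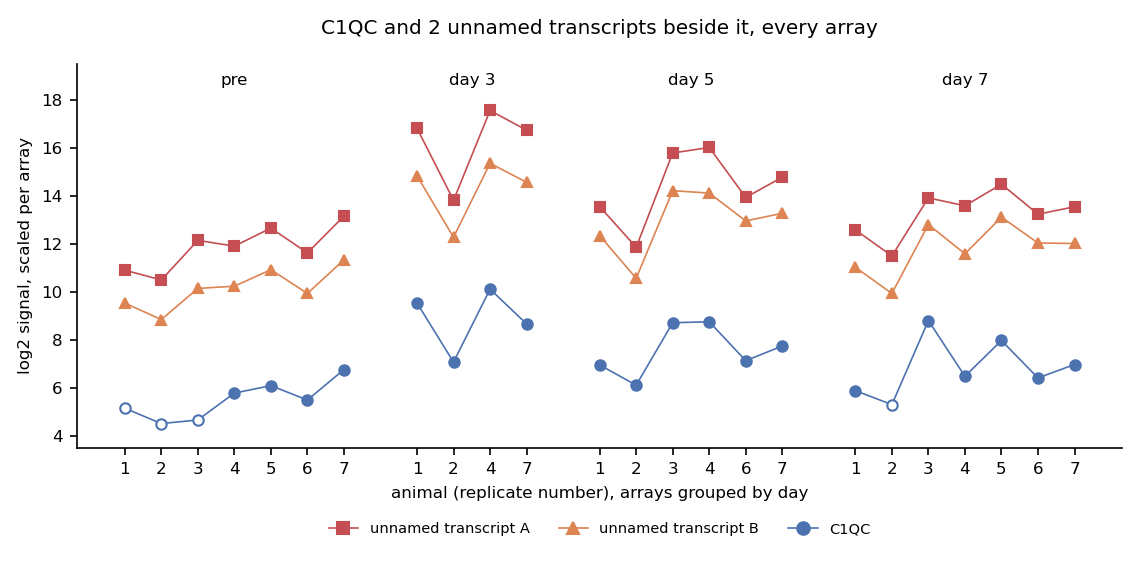
Level (log2 signal, scaled per array) of C1QC and of 2 unnamed transcripts on either side of it in every array, grouped by day and ordered by animal number, with open points for arrays not well above background. At day 3 all 3 probes are lowest in animal 2 and highest in animal 4 and stand above each of their own pre-irradiation levels; at day 7 C1QC is highest in animal 3 and both transcripts in animal 5.

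CD5L stood highest at day 3, like C1QC, and its probes, at bases 2204 and 1089 of the transcripts they were designed on, gave the same order of days. In the brighter probe the pre-irradiation levels were 6.30, 3.97, 3.22, 5.68, 3.91, 7.39 and 3.60 in animals 1 to 7, with 3 of 7 arrays well above background. The day 3 levels were 10.59, 8.03, 8.52 and 7.52 in animals 1, 2, 4 and 7. The day 5 levels ran from 5.26 to 8.66 with a median of 7.83, and the day 7 levels from 4.30 to 8.59 with a median of 7.06. Every day 3 array stood above every pre-irradiation array, as did 4 of 6 at day 5 and 1 of 7 at day 7. The measured difference, which depends on the 4 pre-irradiation arrays not well above background, was 3.8 ± 0.83 at day 3 (called), 2.41 ± 0.73 at day 5 and 1.87 ± 0.70 at day 7. In this probe each animal stood above its own pre-irradiation level on every day sampled. In the second probe, shown above, which rests on pre-irradiation signal near background, the measured differences were 4.27 ± 0.69 (called), 2.72 ± 0.58 (called) and 1.39 ± 0.61, with 1 of 7 pre-irradiation arrays well above background and 6 of 7 animals above their own pre-irradiation level at day 7. The 2 CD5L probes correlated at r = 0.94 over the 24 arrays and at 0.89 with group means subtracted.

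LYVE1, like MRC1, was well above background on no pre-irradiation array and on all 17 arrays after irradiation. Its pre-irradiation levels, not well above background, were 4.63, 3.98, 2.94, 2.98, 3.04, 2.89 and 4.24 in animals 1 to 7. The levels were 6.50, 6.89, 6.64 and 4.94 in animals 1, 2, 4 and 7 at day 3. The day 5 arrays ran from 4.87 to 8.93 around a median of 6.47, and those of day 7 from 5.03 to 9.29 around 6.52. The groups before and after irradiation did not overlap on any day. The measured differences were 2.72 ± 0.44, 3.22 ± 0.57 and 3.13 ± 0.52 at days 3, 5 and 7, all called. Because the pre-irradiation signal gives only a bound, the mean levels after irradiation are given as at least 2.51-fold, 3.56-fold and 3.34-fold higher. The bound sets the mean of the day against the mean of a floor over the pre-irradiation arrays. On each array this floor is the dimmest signal marked well above background, or the measured signal of the probe where that is larger. Such bounds, here and below, have no interval and hold only as processed here. With normexp background the log2 differences of LYVE1 were 0.47, 1.07 and 0.84. Animal 2 reached the highest day 7 level (9.29, on the array with the lowest median signal) and animal 6 the highest day 5 level (8.93). The second LYVE1 probe, designed on the same transcript, was well above background on 1 of 24 arrays, day 5 of animal 6, and gave no value to compare. LYVE1 thus rests on 1 probe.

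MRC1 had its highest mean at day 7 in its brightest probe. Before irradiation its levels were 5.25, 5.00, 5.20, 5.39, 3.65, 5.08 and 3.71 in animals 1 to 7, none well above background. They were 7.63, 7.03, 6.65 and 5.72 at day 3 in animals 1, 2, 4 and 7, ran from 5.27 to 8.10 at day 5 (median 7.20) and from 6.08 to 8.75 at day 7 (median 7.25). All arrays at days 3 and 7 stood above all pre-irradiation arrays, and 5 of 6 did at day 5, animal 7 being the exception. The differences were 2.0 ± 0.43, 2.22 ± 0.45 and 2.71 ± 0.41, all called, with bounds of at least 2.74-fold, 3.19-fold and 4.48-fold. The second MRC1 probe, nearer the start of the transcript (base 3540 against base 5032), gave 2.27 ± 0.21 (called), 2.08 ± 0.48 (called) and 1.68 ± 0.42, with 4 of 4, 4 of 6 and 3 of 7 arrays well above background after irradiation and 0 of 7 before. The bounds of this probe are at least 1.33-fold at day 3 and 1.16-fold at day 5, and at day 7 its mean did not exceed the floor. The third, at base 863, was well above background on no array.

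CD163 was bright on every array, and none of its differences was called as processed here; at day 7 it was called after quantile normalization (1.26) and without animal 4 (0.93). Its levels were 13.63, 13.56, 13.78, 13.05, 14.25, 13.74 and 13.75 before irradiation in animals 1 to 7, and 14.24, 14.27, 13.97 and 14.91 at day 3. They ran from 13.60 to 14.82 at day 5 (median 14.10) and from 13.54 to 15.17 at day 7 (median 14.51). The groups overlapped on every day. The differences were 0.67 ± 0.23, 0.46 ± 0.22 and 0.87 ± 0.24, with 95% intervals of 0.16 to 1.17, -0.03 to 0.94 and 0.36 to 1.38. The animals' own gains were positive in 4 of 4, 5 of 6 and 7 of 7.

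VSIG4 differed more between animals than between days. Before irradiation its levels were 9.53, 8.49, 8.43, 5.95, 9.06, 8.95 and 7.51 in animals 1 to 7. Animals 4 and 7 were the lowest in each group: 6.99 and 8.43 at day 3, 6.54 and 7.36 at day 5, and 5.94 and 7.06 at day 7. Animals 1, 3, 5 and 6 ran from 8.43 to 10.06 wherever they were sampled. The differences from pre-irradiation were 0.23 ± 0.67, 0.17 ± 0.66 and 0.31 ± 0.65, none called, and the 95% interval at day 7 reached from -1.08 to 1.70. The further VSIG4 probe, found through its text description, was well above background on 3 of 24 arrays and was not tested.

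MARCO and SIGLEC1 were near background. The MARCO probe was well above background on no pre-irradiation array, 2 of 4 at day 3, 3 of 6 at day 5 and 4 of 7 at day 7. Its levels were 7.70 and 7.21 at day 3 in animals 1 and 4, and 6.95, 5.98 and 8.82 at day 5 in animals 1, 4 and 6. At day 7 they were 6.43, 4.91, 6.35 and 4.87 in animals 1, 3, 4 and 6, and these 9 arrays are the ones well above background. Animals 2 and 7 stayed between 3.59 and 4.45 in every group. The MARCO differences were 1.63 ± 0.70, 1.52 ± 0.71 and 0.73 ± 0.48, none called, measured against pre-irradiation signal that was not well above background. The SIGLEC1 probes were well above background on 8 and 8 of 24 arrays, and their differences ran from 0.01 to 0.56 over the 3 days, none called.

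**Figure D3:**
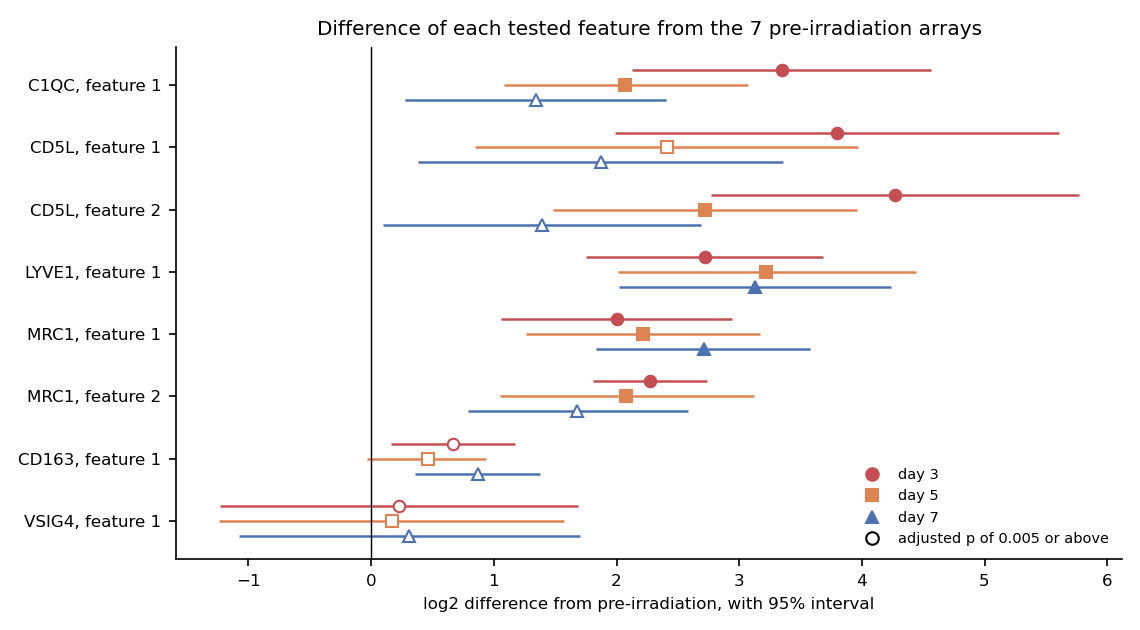
Difference from the 7 pre-irradiation arrays (log2, with 95% interval from limma) of the 8 tested probes of the members at days 3, 5 and 7, with filled points for probes called changed. The C1QC and CD5L points step down from day 3 to day 7, LYVE1 and the first MRC1 probe do not, and the intervals of VSIG4 cross 0 on each day.

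The days were also compared with each other, a contrast the rule did not use, although members chosen for their difference from pre-irradiation were being compared. No member was called between any 2 days. In either direction 1.62% of all genes tested were called for day 7 against day 3, 0.038% for day 5 against day 3 and 0.00948% for day 7 against day 5. The level of C1QC at day 7 minus that at day 3 was -2.01 (95% interval -3.50 to -0.52, limma adjusted p = 0.0645), and it was negative in 4 of 4 animals sampled on both days. CD5L differed by -1.93 (-3.52 to -0.35, adjusted p = 0.0878) in its brighter probe and by -2.88 (-4.74 to -1.01, adjusted p = 0.0410) in its second, again in 4 of 4 animals. LYVE1 differed by 0.41 (-1.03 to 1.85, adjusted p = 0.7) and MRC1 by 0.71 (-0.37 to 1.78, adjusted p = 0.344), each higher at day 7 in 4 of 4 animals; the second MRC1 probe gave -0.59, higher in 1 of 4 animals. Day 3 arrays were all scanned in session 2 and 6 of 7 day 7 arrays in session 1; with the session as a block these differences were -0.87 for C1QC and -1.38 for CD5L, with the slide as a block -1.41 and -0.74, and with the animal as a block -2.68 and -2.42. The unnamed transcripts beside C1QC differed by -2.97 for A (adjusted p = 0.0154) and -2.47 for B (adjusted p = 0.0262), short of the threshold. At an unadjusted p under 0.05, 2 of the 6 genes differed between days 3 and 7, where 3605 of all 10534 genes did, and none between the other days (1167 of 10534 genes for day 5 against day 3 and 2219 of 10548 for day 7 against day 5). The lowest adjusted p was 0.550 for day 5 against day 3 and 0.417 for day 7 against day 5. For these 6 genes the day 5 mean lay between the day 3 and day 7 means in C1QC, CD5L and MRC1, and neighbouring days after irradiation differed by more than the larger of their SDs only for CD5L between days 5 and 3 (1.39 against an SD of 1.35).

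Males and females were compared before irradiation, with 4 and 3 animals. No member was called in limma, where 0.0572% of all genes were. Among the 4 genes well above background on some of these arrays, C1QC alone had an unadjusted p under 0.05, as did 2835 of all 26972 probes tested. The level in males minus that in females was -1.09 for C1QC (95% interval -2.01 to -0.17, limma adjusted p = 0.411); the 3 arrays on which C1QC was not well above background are those of males 1, 2 and 3. LYVE1 and MRC1, not well above background on any of these 7 arrays, give no value here. The change of the members from pre-irradiation to day 7 did not pass the test for a difference between the sexes (0 of 6 genes in limma, none of them at an unadjusted p under 0.05, which 2357 of all 26939 probes had, and 0% of all genes were called), and the lowest adjusted p was 0.779.

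Scan session and slide moved with the day. At day 3 and day 5 all arrays belonged to session 2, whose only pre-irradiation array was that of animal 5. With the session as a block, no member was called at day 3 or day 5, and the differences, which then rest on that array, were 2.75 for C1QC, 4.76 for CD5L, 3.21 for LYVE1 and 3.10 for MRC1 at day 3. At day 5 they were 1.47, 3.37, 3.71 and 3.32. That array had levels of 6.09, 3.91, 3.04 and 3.65 for these 4 genes, and all 4 day 3 arrays and all 6 day 5 arrays stood above it for each of them. For CD163 it stood at 14.25, above 2 of 4 day 3 and 3 of 6 day 5 arrays. At day 7 the 6 arrays of session 1 stood above the 6 pre-irradiation arrays of the same session for LYVE1 and MRC1, with differences of 3.19 and 2.57, and both genes were called with the session as a block, with the slide as a block and within session 1 alone. The slide that held animal 5 before irradiation (C1QC at 6.09) also held the day 3 arrays of animals 4 and 7 (10.11 and 8.66) and the day 7 array of animal 5 (7.97). The animal as a block changed which members were called: CD5L and MRC1 at day 3, C1QC, CD5L, LYVE1 and MRC1 at day 5, and CD5L, LYVE1 and MRC1 at day 7.

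Other genes whose protein works beside the members were read from lists, in the brightest tested probe, as counts beside those of all genes given above. Of the 8 tested complement genes linked to C1q, 2 were called higher at day 3, 2 higher and 1 lower at day 5, and 1 higher and 1 lower at day 7. C3AR1, a receptor for the C3a fragment, was higher by 2.60 ± 0.22 at day 3 and 1.74 ± 0.18 at day 5, and CFP (properdin), which stabilizes the alternative convertase, by 1.17 ± 0.21 at day 3. SERPING1, the C1 inhibitor, was higher by 3.46 ± 0.77 at day 5, and LRP1, an endocytic receptor, by 1.61 ± 0.33 at day 7. For C5AR1, the C5a receptor, the difference was -2.05 ± 0.20 at day 5 and -1.99 ± 0.21 at day 7, both called. The median of this list was 1.01, 0.92 and 1.14 at days 3, 5 and 7.

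Of 17 other tested receptors for scavenging and dying cells, 4 were called higher and 1 lower at day 3, 2 higher and 1 lower at day 5, and 1 higher at day 7. MSR1, the class A scavenger receptor akin to MARCO, was higher at day 3 by at least 2.64-fold and MERTK, a receptor tyrosine kinase for apoptotic cells, by at least 1.91-fold; neither was well above background on any pre-irradiation array. CXCL16, a membrane chemokine that also binds oxidized lipoprotein, was higher by 2.10 ± 0.35 at day 3. MFGE8, a bridge between dying cells and integrins, was higher by 1.40 ± 0.25 at day 5 and 1.66 ± 0.34 at day 7, and CD300LF by 1.38 ± 0.25 at day 5. SCARB1, the receptor for high-density lipoprotein, was called lower at day 5 (-1.06 ± 0.21). The median over this list was 0.95, 0.86 and 0.64 at days 3, 5 and 7.

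Among 7 other tested C-type lectins of myeloid cells, the family of MRC1, 1 was called: CLEC4D, at least 5.40-fold higher at day 7 and well above background on no pre-irradiation array. The list's median was 0.88, 0.66 (-0.46 with the slide as a block) and 0.82. Among 8 other sialic acid-binding lectins, the family of SIGLEC1, which share CD22 with the B cell list, SIGLEC9 was higher by 1.98 ± 0.39 at day 3 and 1.47 ± 0.33 at day 5, and CD22, a lectin of B cells, was lower on every day (-2.92, -3.04 and -2.82); the list's median was 1.07 (0.09 with the slide as a block), 0.38 and 0.21. Of 11 genes of haem breakdown and iron export, which act downstream of CD163, 2 were called higher and 3 lower at days 3 and 5 and 3 lower at day 7, and the median was 0.12 (-0.03 after quantile normalization), -0.29 (0.02 with the session as a block) and -0.21. BLVRB, a biliverdin reductase also abundant in red cell precursors, fell by 2.08, 3.16 and 2.85 at days 3, 5 and 7. SLC48A1, a haem transporter, fell by 2.26, 2.75 and 2.77. FTL, the ferritin light chain, was among the genes called lower at day 5 (-2.33) and day 7 (-2.09). SLC11A1, a metal transporter of phagocytes, was higher by 1.33 ± 0.27 at day 3.

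Over 12 tested macrophage transcription factors and growth factor receptors the median was 0.76, 0.7 and 0.5 at days 3, 5 and 7. KLF4, a factor of monocytes, was higher by 2.32 ± 0.26 at day 3 and 1.6 ± 0.27 at day 5. Of 9 glucocorticoid-responsive genes, a list kept because CD163 responds to glucocorticoids, TSC22D3 alone was called, at day 7, with a difference of -0.89 ± 0.18, and the medians were 0.39, 0.34 (-0.32 with the session as a block) and 0.12 (-0.14 without replicate 2). The call was lost with the animal or the slide as a block, after quantile normalization and with normexp background. It was also lost when animal 3, 5, 6 or 7 was left out. Of 14 interferon-stimulated genes, a list kept because SIGLEC1 belongs to them elsewhere, CXCL10 alone was called, higher by 2.99 ± 0.66 at day 5, and the medians were 1.42, 1.56 and 0.46. No gene of this list was called at day 5 when animal 1, 3, 4 or 6 was left out. None was called there without the filter on dim probes, with normexp background, or with the session or the slide as a block.

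Markers of the cells in blood moved over the same days, and their part in the members' differences was not tested. Of 10 classical monocyte genes, 2 were called higher at day 3 (FCN1 by 1.84 ± 0.24 and CSF3R by 1.72 ± 0.26), FCN1 and CSF3R again at day 5 and S100A8 alone at day 7 (1.35 ± 0.26), with list medians of 0.95, 0.84 and 0.55. With the animal as a block, no gene of the list was called at day 3 or day 7. The means of LYZ and CCR2 went from 15.64 and 4.76 before irradiation to 15.09 and 4.18 at day 3, while those of the other genes rose. CCR2 was well above background on no array of either group. Whether these genes mark monocytes apart from neutrophils was not tested. The mean level of this list ran from 12.38 to 13.26 over the pre-irradiation arrays, and from 13.59 to 14.18, 13.63 to 14.77 and 13.00 to 13.74 over the arrays of days 3, 5 and 7. Of 6 non-classical monocyte genes, 3 were called higher at day 3 (MS4A7 by 2.83 ± 0.33, TCF7L2 by 2.2 ± 0.30 and CX3CR1 by 1.78 ± 0.32), 4 at day 5 and none at day 7, with medians of 1.66, 1.36 and 0.97. The mean level of this list ran from 10.86 to 11.52 before irradiation, 12.07 to 13.54 on day 3 arrays and 11.48 to 13.02 on day 5 arrays, and on day 7 arrays it reached from below the lowest pre-irradiation value up to 12.75. Of 11 other tissue macrophage genes, 3 were called higher at day 3 (LGMN by 1.80 ± 0.24, SLC40A1 by 1.16 ± 0.24, and APOE, well above background on 1 of these 4 arrays and on no pre-irradiation array), SLC40A1 alone at day 5 (0.98 ± 0.20) and none at day 7, with medians of 0.78, 0.83 and 0.81. With the animal as a block, no gene of this list was called at day 3 or day 5. The day 5 call was also lost when animal 1, 2, 3, 4 or 7 was left out. The mean level of this list ran from 7.28 to 7.77, 7.90 to 8.69, 7.64 to 9.01 and 7.38 to 8.61 in the same order of groups. FOLR2, named after its values were seen because it marks resident macrophages with LYVE1, had means of 5.85, 7.17, 6.97 and 6.76 before irradiation and at days 3, 5 and 7, and TIMD4, another marker of it, 6.18, 4.49, 5.24 and 5.67, neither called. SPP1 was well above background on no array and CD209 on 2.

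LYVE1 is also a gene of lymphatic endothelium. Of 10 endothelial genes with a probe, CDH5, FLT4, PDPN, STAB2, TEK and EMCN were well above background on none of the 24 arrays and KDR on 1, so 3 were tested. VWF, which platelets carry too, was higher by 3.04 ± 0.40 at day 3, PECAM1 and PROX1 were not called on any day, and the median of the 3 was 0.93, 0.55 and 0.55. Of 7 platelet genes all were called higher at day 3 (GP1BA at least 4.36-fold, SELP by 3.16 ± 0.49 and ITGA2B by 3.14 ± 0.38), ITGA2B alone at day 5 and none at day 7, with medians of 3.06, 1.07 and 0.08. Of 8 erythroid genes 7, 8 and 8 were called lower at days 3, 5 and 7, with medians of -3.65, -6.08 and -4.87, and all 6 tested B cell genes were lower on each day, with medians of -3.23, -3.62 and -3.58. Of 7 dendritic cell genes 2 were lower on each day, with medians of -1.45, -0.85 and -0.72, the second of which was 0.26 with normexp background. With the animal as a block, none of these 7 genes was called at day 3. IL7R was the 1 of 7 T cell genes called, lower at days 3 and 5, with list medians of -0.50, -0.31 and 0.10, the last of which was -0.01 in the authors' table. ELANE, an early granule protease, was the 1 of 7 neutrophil genes called, lower at days 5 and 7, with list medians of 0.42, 0.35 and -0.05. These medians were -0.82 and -0.76 with the slide as a block at days 3 and 5 and 0.28 after quantile normalization at day 7. No neutrophil gene was called at day 5 when animal 1, 2, 4, 5, 6 or 7 was left out. The same held at day 7 for animal 1, 2, 3, 4, 6 or 7. None of 6 NK cell genes was called, with medians of 0.30, 0.02 and 0.04, the day 5 value being -0.26 with normexp background and the day 7 value -0.11 within session 1.

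**Figure D4:**
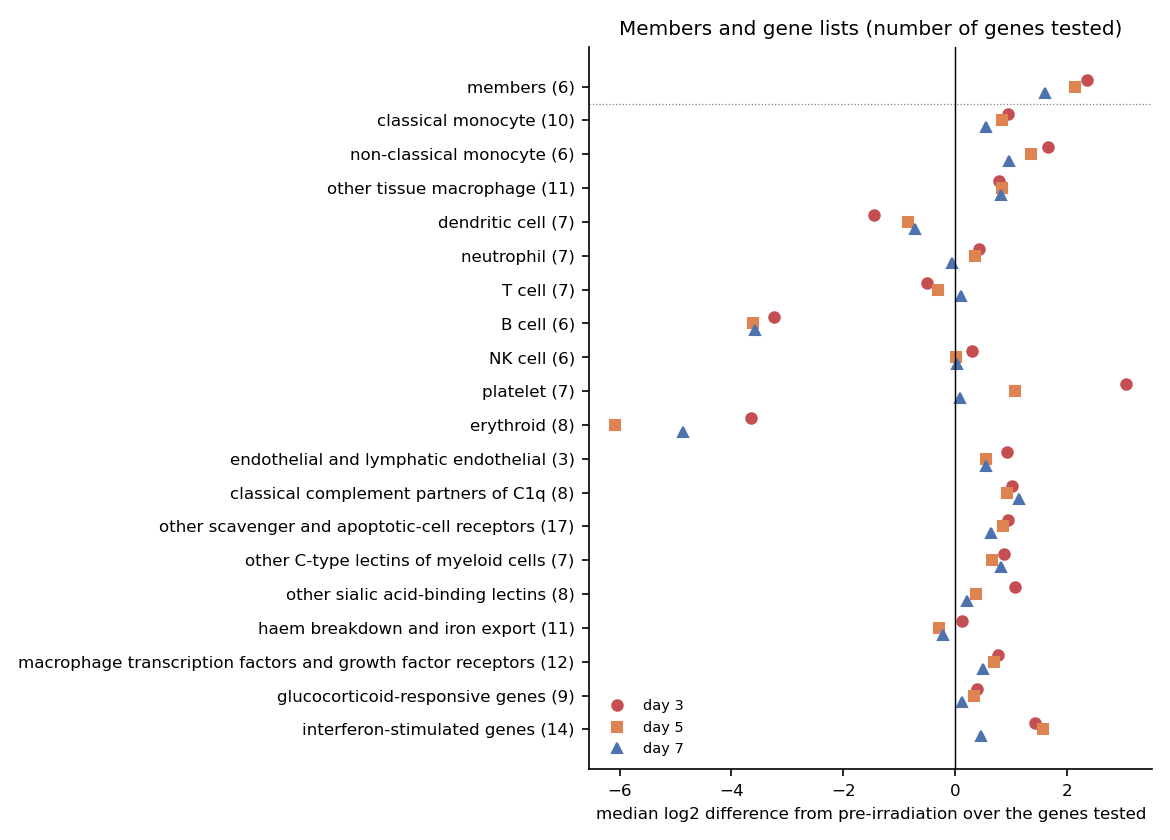
Median log2 difference from pre-irradiation at days 3, 5 and 7 over the tested genes of 19 lists, with the 6 members above the dotted line and the number of genes in brackets. The medians of the members, 2.36, 2.14 and 1.6, are drawn for reference and are not compared with the lists, since the members were chosen on these differences. Among the lists the platelet list lies farthest to the right at day 3, and the erythroid and B cell lists lie farthest to the left.

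The genes whose levels followed those of each member most closely were ranked by Pearson's r over the 24 arrays, among 10325 genes with a value on every array; these values describe the arrays, which share animals and days, and are not tests. C1QC was followed by PLA2G15, a lysosomal phospholipase (r = 0.92, and 0.84 after the group means were subtracted), CLMN (0.89 and 0.75) and NGFR (0.86 and 0.79). CD5L was followed by TIMP1, an inhibitor of metalloproteinases (0.81 and 0.69), ATF3 (0.80 and 0.64) and STARD8 (0.80 and 0.56). For LYVE1 the nearest were TMPPE (0.86 and 0.60), TIMP3 (0.85 and 0.78) and KIF1B (0.84 and 0.59), and for MRC1 they were ADAMTSL4 (0.86 and 0.69), ADAM28 (0.86 and 0.60) and UBA7 (0.85 and 0.51). CD163 was followed by DZIP1L (0.82 and 0.76), PLD3 (0.82 and 0.68) and CC2D2B (0.80 and 0.68), and VSIG4 by the carboxypeptidase gene CPM (0.81 and 0.84), CAPG (0.79 and 0.84) and NMT2 (0.77 and 0.78). Ranked by r after group means were subtracted, the followers of LYVE1 stood at 209, 6 and 225 and those of MRC1 at 30, 121 and 303. Those of CD5L stood at 10, 32 and 114, and none of those of C1QC, CD163 and VSIG4 stood below rank 37. Among the members themselves, C1QC and CD5L correlated at 0.57 over the 24 arrays and at 0.08 with group means subtracted. For C1QC and LYVE1 these values were 0.26 and -0.52. CD163 and VSIG4 correlated at 0.61 and, within groups, at 0.72.

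**Figure D5:**
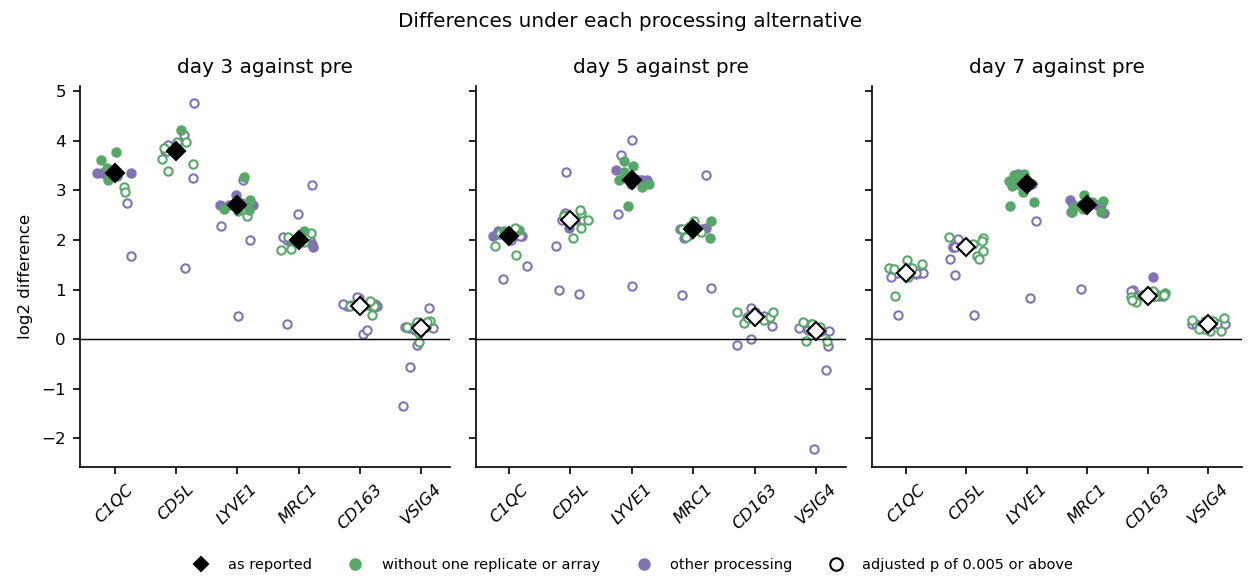
Log2 difference from pre-irradiation of 6 genes at days 3, 5 and 7 as reported (diamonds), without 1 replicate or array (green) and under other processing (purple), with filled points where the gene was called. The differences of C1QC, CD5L, LYVE1 and MRC1 stay above 0 under every setting, while at days 3 and 5 many are not called, and VSIG4 (days 3 and 5) and CD163 (day 5) fall on both sides of 0.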

How the data were processed

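The authors' scanner software (Agilent Feature Extraction, version 10.7 by the labels, a later version by the file headers) gave a processed signal per spot, an intensity on a linear scale with the local background subtracted. RNA had been depleted of globin transcripts. The deposited table of the authors holds log2 values that differ from log2 of that intensity by 1 offset per array. It was used only as an alternative.

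Here the intensity was taken to log2, control spots and outlier spots were left out, spots of a probe were averaged, and the median array served as the reference to which the others were moved, by their median difference from it (-2.03 to 0.87). The filter of at least 4 arrays well above background kept 27112 of 43603 probes. Comparisons used limma 3.58.1 (R 4.3.3), each on its own groups without a block, 2-sided, with Benjamini-Hochberg adjustment over all probes tested and a threshold of 0.005, as in the study's methods. Tables used Python 3.11.15 with pandas 2.3.3 and scipy 1.17.1.

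A gene was read in its brightest tested probe. Named were all members with every probe, at most 3 called genes per list and day with the largest differences, and the 3 genes most correlated with each member. The result of 1 list gene is not reported here. The members and the 19 lists were chosen with earlier results of these data known. Replicate numbers pair the arrays by animal: after group means were subtracted, all 31 pairs of arrays of 1 number correlated over 0.1 (0.132 to 0.648). Pairs of different numbers ran from -0.348 to 0.295, so the ranges overlap. The pre-irradiation and day 7 arrays of each number also shared a slide. Samples of an animal are separate draws. The labels name a rhesus array, as the files do, and the methods a human array.

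Alternatives were other scalings (75th percentile, quantile), normexp background (offset 50), other filters, blocks by animal, slide and scan session, 1 fit of all groups, the authors' table, a threshold of 0.05, any probe of a gene, and leaving out each replicate. Leaving out day 7 replicate 2, and keeping only session 1, were chosen after seeing the data.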

Additional observations from a re-analysis of the deposited data

Results flagged for a closer look

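The values of 3 arrays stood apart from the other arrays of their group, beyond the 95% limit of Dixon's ratio, among 32 combinations of a tested member probe and a group; chance alone sets about 1 in 20 apart. Before irradiation, animal 6 had a level of 6.05 in the second CD5L probe, against 4.45 in the next array, and it was the only one of the 7 well above background there; its brighter CD5L probe was also the highest of the 7, at 7.39. At day 7, animal 4 had the lowest CD163 level, 13.54 against 14.47 in the next array, and it was the lowest of its group before irradiation (13.05), at day 3 (13.97) and at day 5 (13.60) too. At day 7, animal 7 had a level of 2.16 in the second MRC1 probe against 4.63 in the next array, and the probe was not well above background there.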

How the results depend on the processing

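The number of the 6 genes called at day 3, 4 as reported, was 2 without the filter on dim probes, 2 after quantile normalization, 2 with the replicate block, 2 in the authors' table and 0 with normexp background, the session block and the slide block. Leaving out 1 replicate at a time gave 0 to 3 genes, 0 without animal 4 and 1 without animal 1 or 2; CD5L and MRC1 were each called in 1 of these 7 runs. At day 5, 3 as reported became 0 with normexp background, the session block and the slide block in a fit of all groups, and 1 to 3 without 1 replicate (1 without animal 1, 3, 4 or 6). At day 7, 2 as reported became 0 with normexp background and 1 in the authors' table (MRC1), and stayed 2 or 3 without 1 replicate. The replicate block pairs arrays of an animal and gave 2, 4 and 3 genes at days 3, 5 and 7. Normexp background, with an offset of 50, reduced the day 7 differences of LYVE1 and MRC1 from 3.13 and 2.71 to 0.84 and 1.0, and the day 3 ones from 2.72 and 2.0 to 0.47 and 0.30; those of C1QC and CD5L at day 3 went from 3.35 and 3.8 to 1.69 and 1.44. Of 316 recomputed differences of the 6 genes from pre-irradiation, 300 moved by less than the larger SD of the groups compared, 16 moved further and no called one changed sign; the uncalled difference of VSIG4 kept its sign in 13 of 17 settings at day 3 and in 12 of 17 at day 5, and that of CD163 in 16 of 17 at day 5 (-0.12 with the session block, which also lowered its day 3 value from 0.67 to 0.10). With the slide block no gene of the 19 lists was called at day 3, and at day 5 B cell genes alone were; with the session block at day 3, genes of the B cell and scavenger receptor lists alone were. In the authors' table the median of all genes was 0.13 at day 3 and 0.10 at day 5, against -0.01. Between days and between sexes no alternative called a member. The difference of LYVE1 between days 3 and 7, 0.41, was 1.13 with the replicate block, -0.43 with the session block, -0.0241 without day 7 replicate 2 and -0.0036 to 0.69 without 1 replicate, and that of C1QC between the sexes, -1.09, was 0.19 with normexp background. The cause of these shifts was not tested. Signals near background limit LYVE1, MRC1, MARCO and SIGLEC1, and before irradiation also CD5L and C1QC.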
